A study of Mus musculus with 4 samples.

Results

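Phosphoinositides are the phosphorylated forms of phosphatidylinositol, a membrane lipid. CDP-diacylglycerol synthases supply the precursor from which phosphatidylinositol is made, lipid kinases add phosphates, phosphatases remove them, and phospholipase C cleaves the bisphosphate into inositol trisphosphate, which releases calcium from internal stores, and diacylglycerol. In neurons this turnover links receptors coupled to Gq proteins to calcium signals, and it also steers vesicle traffic at synapses and in the Golgi. The circular RNAs (circRNAs) described here come from 5 genes of this cycle. Cds1 encodes a CDP-diacylglycerol synthase, Pip5k1b a kinase that makes the bisphosphate from the monophosphate, Sacm1l the phosphatase Sac1 of the endoplasmic reticulum and Golgi, and Plcb1 and Plcb4 encode phospholipases C of the beta class, which Gq activates. A circRNA is a closed RNA ring in which the end of a later exon is spliced back to the start of an earlier exon.

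The 5 genes were chosen from earlier results on these same libraries, in which circRNAs of some of them had stood out by their counts, Pip5k1b and Sacm1l in penumbra against the frontal core. Their differences between libraries are therefore given as a description and not as a test. A circRNA of the deposited table was taken as a member if 1 or both of its ends lay on an exon boundary of 1 of these genes in GENCODE M21 (GRCm38). This gave 40 of 23980 circRNAs: 6 of Cds1, 2 of Pip5k1b, 9 of Sacm1l, 17 of Plcb1 and 6 of Plcb4. Both ends lay on such boundaries for 36 of them, and none had an end on an exon boundary of another gene. Over the 4 libraries together, 13 had 10 or more counts and held 432 of the 526 counts of all members, and the other 27 had 2 to 8 counts each.

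The libraries were made from mouse brain tissue taken after cardiac perfusion. The penumbra (threatened tissue around the infarct), the part of the infarct core toward the frontal lobe (frontal core) and the part toward the occipital lobe (occipital core) came from mice 3 h after permanent occlusion of the middle cerebral artery by a filament (MCAO), with the RNA of 6 mice mixed for each library. The sham library came from cortex corresponding to core and penumbra after a sham operation. How many sham mice were used, when they were sampled, and the genotype, strain, sex and age of all mice are not stated in the labels, nor whether the same 6 mice gave all 3 MCAO tissues.

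Each group was a single library without replicate error, and a difference between groups cannot be told apart from a difference between pools. Total circRNA counts lay between 83090 and 121393 per library. Levels are given as counts scaled to a common library total (CPM), and 3 counts, taken as the limit that a count of 0 allows, corresponded to between 24.7 and 36.1 CPM. Square brackets hold 95% intervals, which cover counting error only. As a check of the tissue, all 11 neuronal marker genes listed had circRNAs, summing to 24763 to 26995 CPM per library. Astrocyte markers had 65.7 to 135 CPM, all from Slc1a2, 1 of 5 genes listed, and endothelial markers 0 or 1 count, from 1 of 4 genes. None of the 6 oligodendrocyte, 4 microglial and 4 blood cell genes had a circRNA on its exon boundaries. Linear RNA was not analysed here, and in bulk tissue fewer cells of a type and less RNA per cell cannot be told apart.

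The back-splice junction is the piece of sequence that sets a ring apart from the linear RNA of its gene, so it is printed for the most abundant circRNA of each gene, with GRCm38 coordinates and the sequence of the GENCODE M21 transcript. The last 30 bases of the last exon are in lower case and the first 30 bases of the first exon in capitals, 5′ to 3′ on the gene's strand, so the change of case marks the back-splice. All of these bases are coding sequence.
Cds1 exons 2 to 5, chr5:101781375-101798516, plus strand: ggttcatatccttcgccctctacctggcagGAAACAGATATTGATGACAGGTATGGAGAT
Pip5k1b exons 8 to 13, chr19:24346237-24360151, minus strand: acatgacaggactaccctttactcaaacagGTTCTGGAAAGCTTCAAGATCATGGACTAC
Sacm1l exons 9 to 13, chr9:123568924-123579047, plus strand: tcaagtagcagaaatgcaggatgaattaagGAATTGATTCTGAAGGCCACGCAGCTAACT
Plcb1 exons 24 to 27, chr2:135359654-135370601, plus strand: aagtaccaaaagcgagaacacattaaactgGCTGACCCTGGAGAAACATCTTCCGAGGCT
Plcb4 exons 4 to 6, chr2:135907499-135910244, plus strand: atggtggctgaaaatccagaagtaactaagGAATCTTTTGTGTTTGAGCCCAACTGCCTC

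The map of joined exons shows where the rings of each gene began and ended. All 6 Cds1 circRNAs began at exon 2 or 3 and ended in exon 3, 4 or 5 of 13. Of 9 Sacm1l circRNAs, 5 began at exon 2 and 5 ended at exon 13 of 20, with 1 circRNA doing both. The Plcb1 circRNAs fell mostly into a stretch of exons 3 to 9 and a stretch of exons 23 to 32 of 33, and 4 of the 6 Plcb4 circRNAs lay within the first 6 of 37 exons. Plcb1 (chr2:134786067-135475258) and Plcb4 (chr2:135659011-136014593) are neighbours on the plus strand of chromosome 2, 183752 bases apart, and no member joined one to the other.

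**Figure D1:**
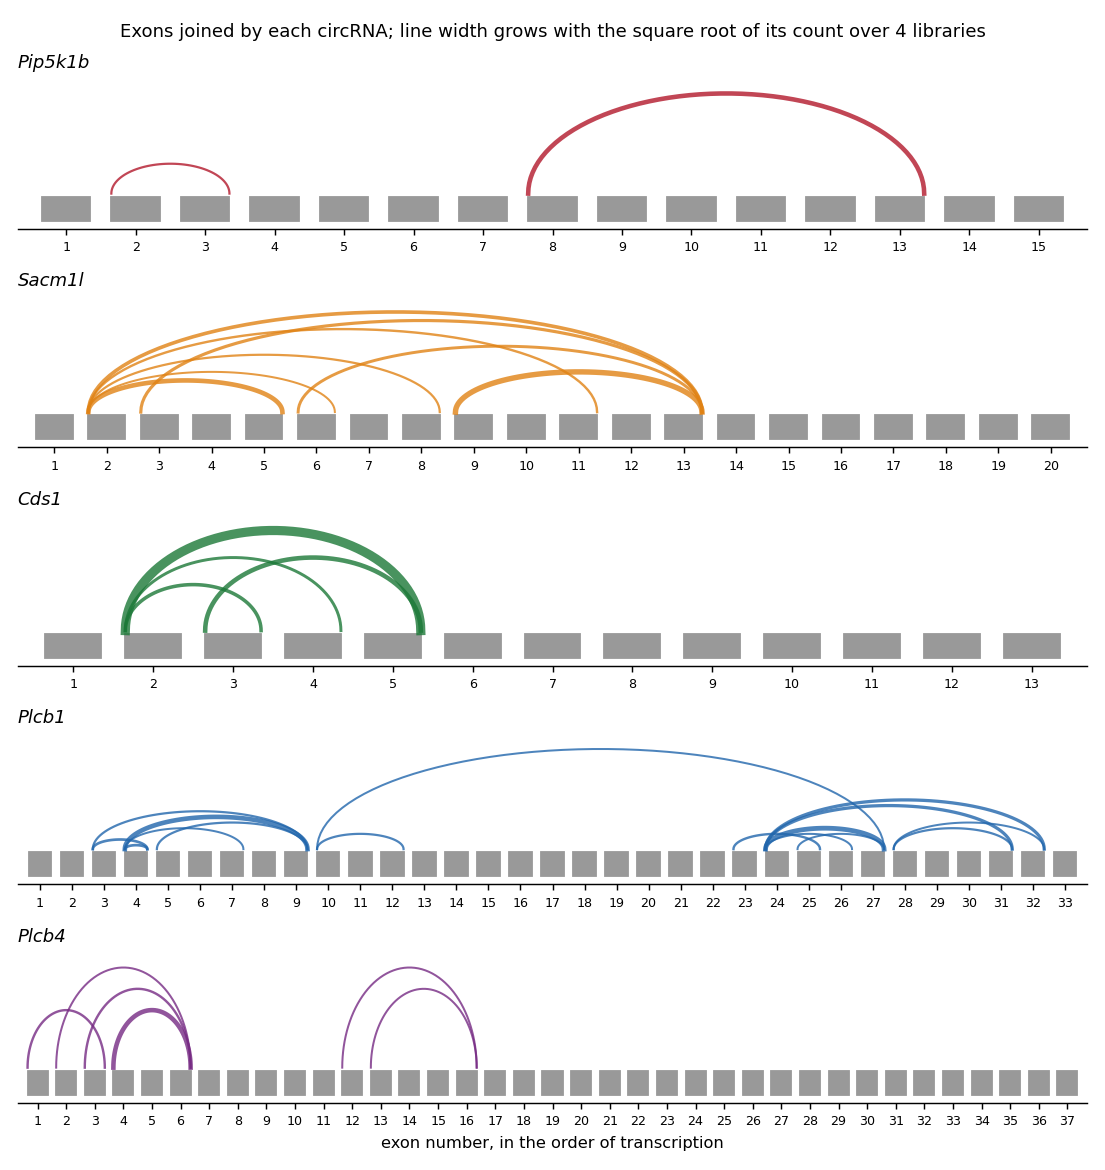
Each arc joins the first and last exon of a circRNA with both ends on annotated exon boundaries (36 of 40), above the exons of the transcript with the most exons, drawn at equal width and numbered in the order of transcription; line width grows with the square root of the count over the 4 libraries. The thickest arc is that of Cds1 exons 2 to 5 with 153 counts.

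In the structure that could be derived for these 36, the median circRNA held 4 exons and 453 spliced bases, compared with 4 exons and 541 bases over all 19586 circRNAs of the table with such a structure. The median intron upstream of the first exon had 15492 bases for members and 8370 over all, and the median intron downstream of the last exon 9705 and 6703 bases. Members of 1 gene share these introns, so the medians rest on 24 start and 23 end positions at most. Only coding bases were held by 30 of the 36 (83.3%, against 82.4% over all), and the spliced length was a multiple of 3 for 14 (38.9%, against 38.0% over all). Exon 2 came first in 10 (27.8%, against 23.9% over all). The start codon with 15 to 130 untranslated bases lay in 4 members, 3 of Plcb4 and 1 of Pip5k1b.

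Cds1 (chr5:101765130-101823858, plus strand) had 210 counts over the 4 libraries; levels are not compared between genes here. The Cds1 circRNAs together had 67 counts in penumbra, 37 in frontal core, 44 in occipital core and 62 in sham, or 695, 305, 530 and 582 CPM in the same order. Penumbra was the highest and frontal core the lowest library. From high to low, penumbra, sham and occipital core did not differ from their neighbours beyond counting error: the ratio of penumbra to sham was 1.20 [0.833–1.72] and that of occipital core to sham 0.910 [0.604–1.36]. Frontal core lay below the next library, occipital core, by a ratio of 0.576 [0.361–0.912], and its ratio to sham was 0.524 [0.339–0.80]. The ratio of penumbra to frontal core was 2.28 [1.51–3.51].

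A single circRNA made up most of the Cds1 signal. The ring of exons 2 to 5, with 463 spliced bases that span codons 40 to 194 of 461, had 47 counts in penumbra, 29 in frontal core, 35 in occipital core and 42 in sham (488, 239, 421 and 394 CPM). Frontal core was the low library here too, with a ratio of penumbra to frontal core of 2.04 [1.26–3.36] and of frontal core to sham of 0.606 [0.364–0.996]. This ring held 72.9% of all Cds1 counts [66.3–78.7, exact binomial], and between 67.7% in sham and 79.5% in occipital core, with intervals that overlap among all 4 libraries. The difference between these shares was not tested. The ring of exons 3 to 5 had 13 counts in penumbra, 5 in frontal core, 3 in occipital core and 7 in sham, and that of exons 2 and 3 had 6, 1, 3 and 4. Both were highest in penumbra. The ratio of penumbra to sham was 2.05 [0.762–6.08] for exons 3 to 5 and 1.66 [0.393–7.99] for exons 2 and 3, and both intervals hold 1. The ratio of penumbra to occipital core for exons 3 to 5 was 3.74 [1.03–20.4]. The ring of exons 2 to 4 had 1 to 3 counts in each library.

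The 2 Cds1 circRNAs with an unannotated end shared that end, at position 101798487 of chromosome 5. It lies 29 bases before the annotated end of exon 5 and leaves 111 of the exon's 140 bases in the ring. The last bases of exon 5 are shown because the unannotated end falls within them; lower case marks what stays in the ring and capitals the 29 bases beyond it, which begin with the GT that introns begin with.
Cds1 exon 5, end: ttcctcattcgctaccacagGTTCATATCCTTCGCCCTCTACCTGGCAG
The junctions from this end go to the start of exon 2 and to the start of exon 3, and in each the same lower-case bases are joined to another exon in capitals.
Cds1 short exon 5 to exon 2, chr5:101781375-101798487: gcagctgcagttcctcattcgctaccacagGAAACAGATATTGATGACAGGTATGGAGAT
Cds1 short exon 5 to exon 3, chr5:101791475-101798487: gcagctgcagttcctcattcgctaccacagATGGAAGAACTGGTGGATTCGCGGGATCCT
The first had 0 counts in penumbra, 0 in frontal core, 0 in occipital core and 4 in sham, and the second 0, 0, 1 and 2. Of the 7 counts at this end, 6 were in sham; the annotated end of exon 5 had 60 counts in penumbra, 34 in frontal core, 38 in occipital core and 49 in sham. These junctions were picked out after their values were seen, and a count of 0 allows up to 3 counts.

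**Figure D2:**
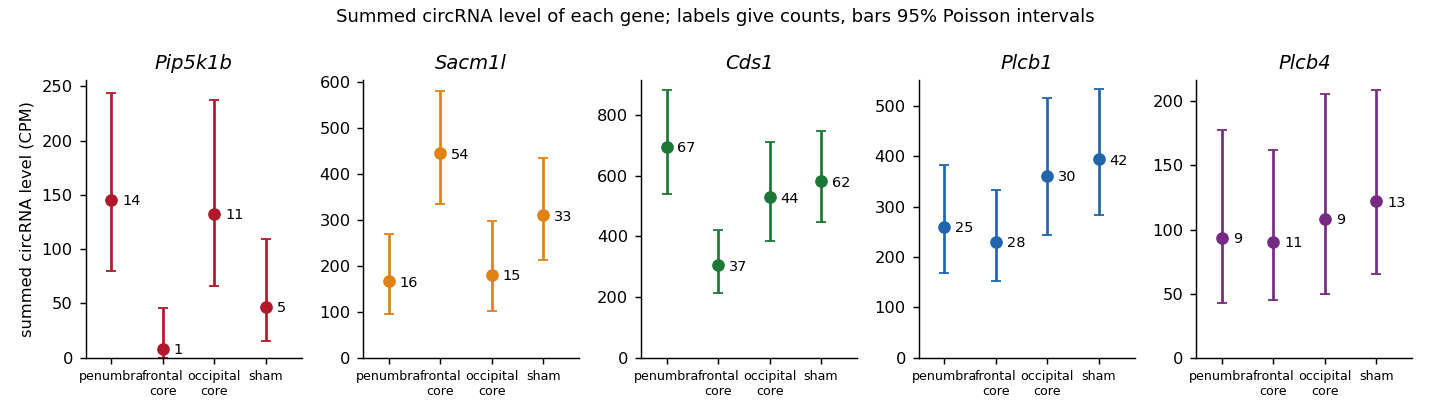
Summed circRNA level per gene (CPM, vertical axes starting at 0 and scaled per gene) in penumbra, frontal core, occipital core and sham; points are single libraries labelled with their counts and bars are 95% Poisson intervals. In CPM, frontal core is lowest for Pip5k1b (1 count), Cds1 (37 counts), Plcb1 (28 counts) and Plcb4 (11 counts) and highest for Sacm1l (54 counts). The intervals of Plcb4 all overlap.

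Pip5k1b (chr19:24294794-24555872, minus strand) had few counts, and nearly all came from 1 ring. In sum it had 14 counts in penumbra, 1 in frontal core, 11 in occipital core and 5 in sham, or 145 [79.4–244], 8.24 [0.209–45.9], 132 [66.1–237] and 46.9 [15.2–109.5] CPM. Exons 8 to 13, with 731 spliced bases over codons 258 to 501 of 539, had 12 counts in penumbra, 1 in frontal core, 11 in occipital core and 4 in sham, or 125, 8.24, 132 and 37.5 CPM. Penumbra and occipital core were high, sham lay between, and frontal core had a single count. The ratio of penumbra to frontal core was 15.1 [2.24–646], the contrast in which this ring had stood out before, and that of frontal core to occipital core 0.0622 [0.00145–0.428]. Against sham the ratio of this ring was 3.32 [1.01–14.1] in penumbra and 3.53 [1.05–15.2] in occipital core. Penumbra and occipital core did not differ beyond counting error (0.941 [0.380–2.35]). For all Pip5k1b counts the ratio to sham was 3.10 [1.05–10.99] in penumbra, 2.82 [0.904–10.4] in occipital core and 0.176 [0.00371–1.57] in frontal core. The intervals of occipital core and frontal core hold 1. The other ring, exons 2 and 3, had 2 counts in penumbra, 0 in frontal core, 0 in occipital core and 1 in sham. Upstream of exon 2 lies an intron of 112076 bases, which separates the first exon from the rest of the gene.

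Sacm1l (chr9:123529759-123592600, plus strand) showed another order of libraries, with frontal core on top. Its circRNAs together had 16 counts in penumbra, 54 in frontal core, 15 in occipital core and 33 in sham, or 166, 445, 181 and 310 CPM. The ratio of penumbra to frontal core was 0.373 [0.199–0.662] and that of frontal core to occipital core 2.46 [1.37–4.70]. From high to low, frontal core did not differ from sham beyond counting error (1.44 [0.915–2.29]), nor occipital core from sham (0.583 [0.294–1.10]), nor penumbra from occipital core (0.920 [0.426–2.00]). Penumbra against sham gave 0.536 [0.276–1.00].

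The most abundant Sacm1l ring, exons 9 to 13 with 421 spliced bases, had 3 counts in penumbra, 23 in frontal core, 8 in occipital core and 10 in sham (31.1, 189, 96.3 and 93.8 CPM). Frontal core was highest and penumbra lowest, and the ratio of penumbra to frontal core was 0.164 [0.0316–0.544], again the contrast in which the ring had stood out before. The ring of exons 2 to 5, with 451 spliced bases, had 6 counts in penumbra, 15 in frontal core, 3 in occipital core and 5 in sham. It was also highest in frontal core, with a ratio of frontal core to occipital core of 3.42 [0.968–18.4] and to sham of 2.63 [0.910–9.26]; both intervals hold 1.

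The longest Sacm1l ring did not share that order. Exons 2 to 13, with 1068 spliced bases, had 1 count in penumbra, 4 in frontal core, 1 in occipital core and 9 in sham. Sham was highest, and the ratio to sham was 0.123 [0.00280–0.887] in penumbra, 0.390 [0.0878–1.40] in frontal core and 0.142 [0.00325–1.03] in occipital core. This ring takes its start from the ring of exons 2 to 5 and its end from that of exons 9 to 13, as the junctions show, with the last exon in lower case and the first exon in capitals.
Sacm1l exons 2 to 5, chr9:123542344-123552817, plus strand: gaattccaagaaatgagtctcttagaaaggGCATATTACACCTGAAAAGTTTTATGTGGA
Sacm1l exons 2 to 13, chr9:123542344-123579047, plus strand: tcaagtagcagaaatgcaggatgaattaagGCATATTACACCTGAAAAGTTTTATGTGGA
The ring of exons 3 to 13 had 2 counts in penumbra, 2 in frontal core, 2 in occipital core and 4 in sham, and that of exons 6 to 13 had 2, 2, 0 and 4. Both had their highest count in sham, but the intervals of all their ratios to sham hold 1. That of frontal core to sham, for example, was 0.439 [0.0397–3.06] for each. No order shared with the ring of exons 2 to 13 is read from these small counts. The ring of exons 9 to 13, which has the same end, was highest in frontal core. The ring of exons 2 to 11 had 4 counts, all in frontal core, and the 3 others (exons 2 to 6, exons 2 to 8 and a ring with an unannotated start that ends at exon 13) had 2 or 3 counts in all. All 5 circRNAs that ended at exon 13 summed to 8 counts in penumbra, 33 in frontal core, 11 in occipital core and 28 in sham, and all 5 that began at exon 2 to 9, 25, 5 and 14.

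Sac phosphatases carry their catalytic cysteine in a motif of Cys, 5 residues, Arg and then Thr or Ser. In the Sacm1l reading frame this motif occurred once, at codons 389 to 396 of 587. The 8 Sacm1l rings with both ends on annotated boundaries covered codons 11 to 367 at most, so none of them held the codons of the motif. The ring of exons 2 to 13 was the only 1 of these 8 whose spliced length is a multiple of 3.

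**Figure D3:**
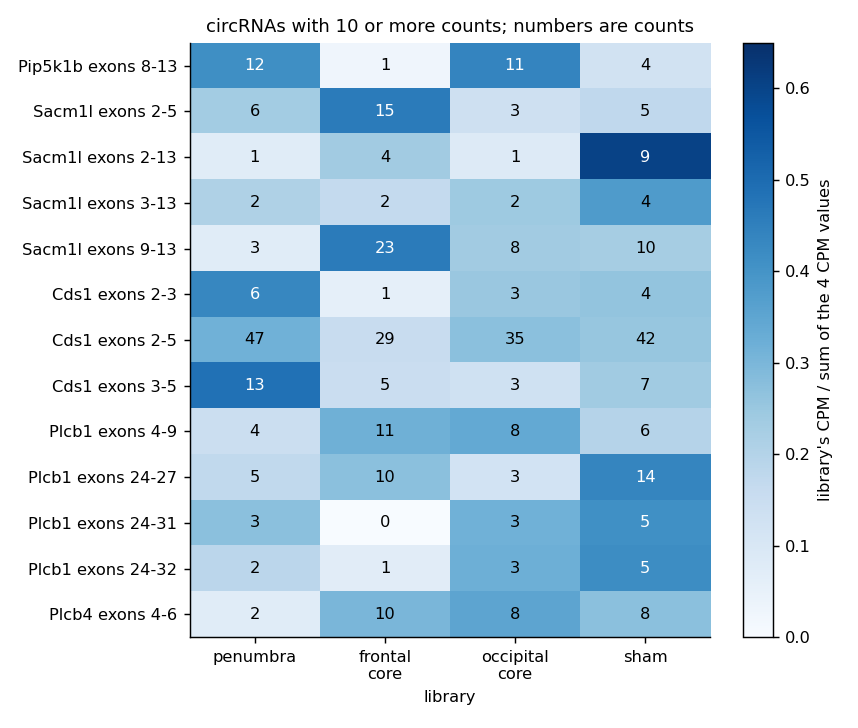
Rows are the 13 circRNAs that reached 10 counts in all and columns the libraries; numbers are counts, and the shade is the library's CPM divided by the sum of the 4 CPM values of that circRNA. Frontal core is darkest for Sacm1l exons 2 to 5 (15 counts) and exons 9 to 13 (23 counts), and sham for Sacm1l exons 2 to 13 (9 counts).

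Plcb1 had the most circRNAs of the 5 genes, and most of them were rare: 4 of 17 reached 10 counts. Together they had 25 counts in penumbra, 28 in frontal core, 30 in occipital core and 42 in sham, or 259, 231, 361 and 394 CPM. Sham was highest and frontal core lowest, with a ratio of frontal core to sham of 0.585 [0.349–0.967]. Neighbours in that order did not differ beyond counting error: occipital core to sham gave 0.916 [0.554–1.5], penumbra to occipital core 0.719 [0.405–1.26] and penumbra to frontal core 1.12 [0.629–2.00].

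The summed counts of the 2 stretches of Plcb1 had different orders of libraries. The 6 rings within exons 3 to 9 summed to 9 counts in penumbra, 13 in frontal core, 18 in occipital core and 9 in sham, while the 8 within exons 23 to 32 summed to 14, 14, 11 and 28. The stretches were drawn after the map of exons was seen. No interval is given for these small sums, and the difference in order was not tested. In the first, exons 4 to 9 (chr2:135220718-135262274), over codons 83 to 288 of 1173, had 4 counts in penumbra, 11 in frontal core, 8 in occipital core and 6 in sham, and exon 4 alone formed a ring of 138 bases with 3, 0, 2 and 1 counts. The intron before exon 4 has 232525 bases. Exons 3 and 4 (207 bases) had 1 count in penumbra, 0 in frontal core, 5 in occipital core and 0 in sham, the only Plcb1 ring with most of its counts in occipital core among those with 4 or more counts. The 3 rings that ended at exon 9 or exon 7 besides these had 2 or 3 counts each.

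The second stretch reaches into the long C-terminal extension that sets the beta class apart from other phospholipases C and that takes part in binding Gq. Here 4 rings began at exon 24. Exons 24 to 27 (588 spliced bases, codons 842 to 1037) had 5 counts in penumbra, 10 in frontal core, 3 in occipital core and 14 in sham, or 51.9, 82.4, 36.1 and 131 CPM. Sham was highest, and the ratio of occipital core to sham was 0.275 [0.0506–0.985]; that of penumbra to sham was 0.395 [0.111–1.16]. Exons 24 to 31 had 3 counts in penumbra, 0 in frontal core, 3 in occipital core and 5 in sham. Exons 24 to 32, which reach 22 bases past the last amino acid codon, stop codon included, had 2, 1, 3 and 5. All 3 of these rings were highest in sham. For exons 24 to 31 and exons 24 to 32, occipital core came next, and its ratio to sham was 0.769 [0.119–3.95] for each, which holds 1. The remaining ring that began at exon 24, exons 24 to 26, had 0 counts in penumbra, 0 in frontal core, 1 in occipital core and 1 in sham. Counted in neither stretch were 2 rings that began at exon 10. Exons 10 to 12 had 3 counts, and exons 10 to 27, which run into the second stretch, had 2. Also left out was 1 ring with an unannotated start that ended at exon 4, with 2 counts in penumbra, 0 in frontal core, 0 in occipital core and 2 in sham.

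Plcb4 had 9 counts in penumbra, 11 in frontal core, 9 in occipital core and 13 in sham, or 93.4, 90.6, 108 and 122 CPM, and none of its 6 ratios between libraries had an interval that leaves out 1. Its leading ring, exons 4 to 6 with 285 spliced bases over codons 29 to 123 of 1175, had 2 counts in penumbra, 10 in frontal core, 8 in occipital core and 8 in sham (20.8, 82.4, 96.3 and 75.1 CPM). Penumbra was the low library for this ring, with a ratio of 0.276 [0.0286–1.39] to sham, 0.252 [0.0268–1.18] to frontal core and 0.216 [0.0223–1.08] to occipital core. All 3 intervals hold 1. It made up 22.2% [2.81–60.01] of Plcb4 counts in penumbra, 90.9% [58.7–99.8] in frontal core, 88.9% [51.8–99.7] in occipital core and 61.5% [31.6–86.1] in sham. The intervals of penumbra and frontal core overlap only between 58.7% and 60.01%. Overlap does not measure a difference of shares, and that difference was not tested. The 3 rings with the start codon, which end at exon 3 or 6, had 6 counts in penumbra, 0 in frontal core, 1 in occipital core and 3 in sham. No interval is given for these small sums, and their difference between libraries was not tested. The rings of exons 12 to 16 and 13 to 16 had 2 counts each.

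**Figure D4:**
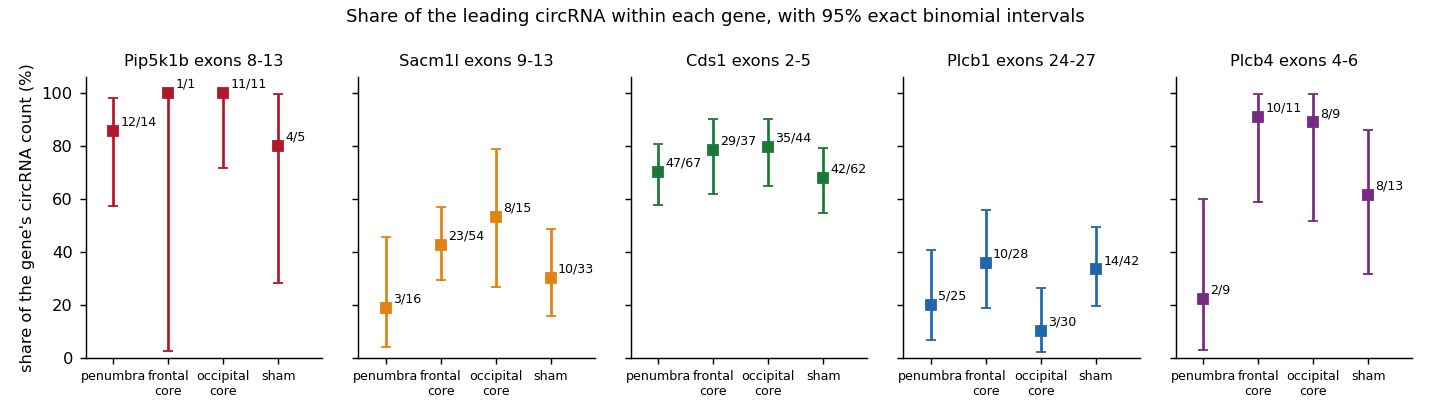
Share of each gene's circRNA count held by its leading ring (percent) in penumbra, frontal core, occipital core and sham; squares are single libraries labelled with the counts and bars are 95% exact binomial intervals. The share for Plcb4 is 22.2% in penumbra and 90.9% in frontal core, while that for Cds1 lies between 67.7% and 79.5%.

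Across the 30 ratios of summed levels (5 genes, 6 pairs of libraries), 9 had an interval that leaves out 1, and frontal core was 1 of the 2 libraries in 8 of them. The exception was Pip5k1b in penumbra against sham, at 3.10 [1.05–10.99]. These 6 pairs share libraries and are not independent of each other, and the intervals are not adjusted for their number. Pip5k1b and Sacm1l had stood out before in penumbra against frontal core, so part of this count follows from the choice of genes. No share over all host genes is given beside it, and nothing about frontal core is read from it.

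To set single rings against the whole table, every circRNA that reached 10 counts in the pair compared was asked for a CPM ratio of at least 2 either way. In penumbra against sham, 6 of 10 members with enough counts met it, against 23.8% of all circRNAs with enough counts. In frontal core against sham it was 3 of 8 (26.5% of all) and in occipital core against sham 3 of 8 (24.4% of all). In penumbra against frontal core it was 6 of 8 (24.4% of all), in penumbra against occipital core 4 of 6 (20.4% of all) and in frontal core against occipital core 3 of 7 (25.6% of all). Nothing is read from these shares, since the genes were chosen with results on these libraries known. None of the 27 members with under 10 counts over all libraries could enter.

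With Fisher's exact test (two-sided) at a Benjamini-Hochberg adjusted p under 0.05 added as a condition, 2 of 8 members were called in penumbra against frontal core, Pip5k1b exons 8 to 13 as higher and Sacm1l exons 9 to 13 as lower, beside 0.934% of all circRNAs with enough counts. This test compares the reads of 2 libraries, not the conditions, and these rings had stood out in it before. In the other comparisons 0 members were called, where the share of all circRNAs called was 0.0538% in penumbra against sham, 0.747% in frontal core against sham, 0.467% in occipital core against sham, 0.0606% in penumbra against occipital core and 0.344% in frontal core against occipital core.

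**Figure D5:**
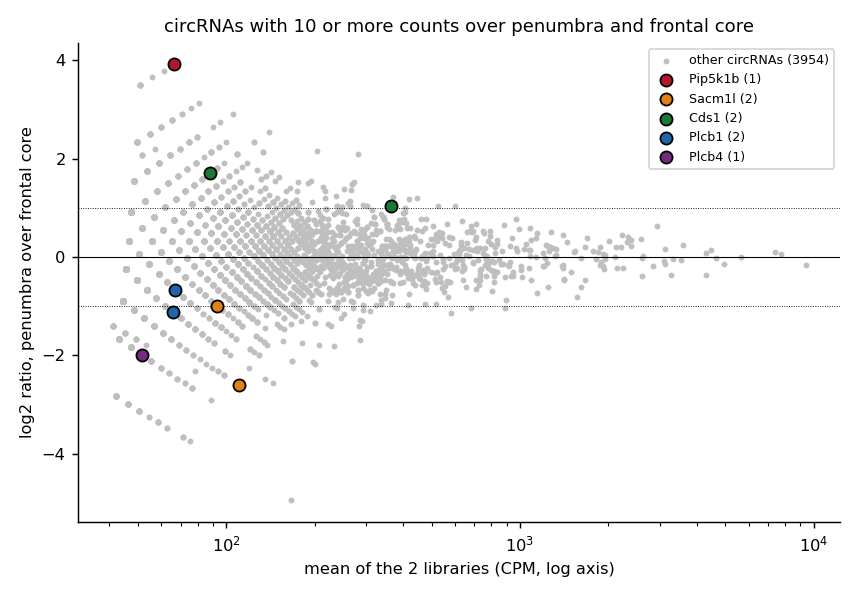
Log2 ratio of penumbra over frontal core (vertical axis) against the mean level of the 2 libraries (CPM, log axis) for circRNAs that reached 10 counts in this pair, with the 8 members in colour and dotted lines at 2-fold; a count of 0 was set to 3 for the ratio. Pip5k1b lies at the top with 12 and 1 counts, Cds1 exons 2 to 5 just above the 2-fold line at a ratio of 2.04, and Sacm1l exons 9 to 13 lowest of the 8 at 0.164.

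The rest of the phosphoinositide cycle was described from a list of 94 other genes, of which 57 had 1 or more circRNAs, 369 in all. None of these 369 was called with the adjusted p in any of the 6 comparisons, in either direction. A ratio of at least 2 was met by 7 higher and 11 lower of 77 with enough counts in penumbra against sham, 12 and 10 of 81 in frontal core against sham, and 7 and 7 of 69 in occipital core against sham. In penumbra against frontal core it was met by 10 higher and 11 lower of 78, in penumbra against occipital core by 8 and 6 of 70, and in frontal core against occipital core by 11 and 7 of 73. As shares these were 23.4%, 27.2%, 20.3%, 26.9%, 20% and 24.7% in the order given, next to 20.4% to 26.5% over all circRNAs. The median log2 ratio of the list was -0.02 in penumbra against sham (0.01 over all), -0.0036 in frontal core against sham (0.03 over all) and -0.13 in occipital core against sham (-0.06 over all). It was -0.0044 in penumbra against frontal core (-0.05 over all), 0.05 in penumbra against occipital core (0.01 over all) and 0.11 in frontal core against occipital core (0.07 over all).

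Grouped by role, the circRNAs of the 25 other genes listed under kinases, regulatory subunits included, summed to 4276 CPM in penumbra, 4193 in frontal core, 4140 in occipital core and 4664 in sham. The 27 genes listed under phosphatases, which include some without catalytic activity, had 2647, 3073, 3213 and 3078 CPM in the same order. The 8 genes of synthesis and transfer had 426, 305, 493 and 450 CPM, from 41, 37, 41 and 48 counts. The 12 other phospholipases C had 2833, 2290, 3093 and 2102 CPM, and the 22 genes downstream of the cleavage 8220, 8625, 8232 and 7996 CPM. Plcl2 held 243 of the 273 counts of the other phospholipases C in penumbra.

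Among single genes of the list, the 5 with the highest sums of counts were Dgki, Pi4ka, Plcl2, Prkcb and Mtmr12. Dgki, a kinase that turns diacylglycerol into phosphatidic acid, had 520 counts in penumbra, 628 in frontal core, 445 in occipital core and 564 in sham, with ratios to sham of 1.02 [0.903–1.15], 0.977 [0.871–1.10] and 1.01 [0.892–1.15]. Pi4ka, which makes the monophosphate at the plasma membrane, had 245, 281, 196 and 262 counts, and Prkcb, a protein kinase C that diacylglycerol activates, had 138, 198, 137 and 156. All ratios of these 3 genes between libraries had intervals that hold 1. Plcl2, a relative of phospholipase C without catalytic activity, had 243 counts in penumbra, 261 in frontal core, 233 in occipital core and 195 in sham. Its ratios to sham were 1.38 [1.14–1.67] in penumbra, 1.17 [0.972–1.42] in frontal core and 1.53 [1.26–1.86] in occipital core, and that of frontal core to occipital core was 0.767 [0.640–0.919]; the intervals of its other 2 ratios hold 1. Mtmr12, an inactive member of the myotubularin phosphatases, had 74, 125, 80 and 122 counts, with a ratio of penumbra to sham of 0.671 [0.496–0.903]; the intervals of its other 5 ratios hold 1.

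The host genes whose summed circRNA levels were most like those of the members over the 4 libraries were sought among 874 genes with 100 or more counts, by the root mean square difference of centred log2 CPM. The nearest were Phtf2 (0.10) and Gnai1 (0.11) for Cds1, Ube2e3 (0.15) and Pcmtd1 (0.17) for Sacm1l, Ccny (0.04) and Ilkap (0.05) for Plcb1, and Nars2 (0.03) and Usp3 (0.04) for Plcb4. For Pip5k1b the nearest, Ankrd12 (1.07) and Extl3 (1.11), were far. With 4 libraries such likeness is a description. Ube2e3 had 16 counts in penumbra, 49 in frontal core, 18 in occipital core and 35 in sham, and Gnai1 had 48, 22, 30 and 44.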

How the data were processed

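CircRNAs were measured by RNA sequencing after removal of ribosomal RNA, in 4 libraries of mouse brain. The authors deposited whole-number counts per circRNA, identified by chromosome, start and end, without normalization, and a matching FPKM table; per the submitters' processing notes, TopHat2 2.0.10, Bowtie and mm9 were used. The circRNA caller is not given in the sources used here. The deposited FPKM values equalled count over genomic span and library total (largest relative difference 5.09e-15) and were not used further. Another column, the genomic span, equalled end minus start plus 1 for all members. Coordinates lie on GRCm38 and not on mm9: 89.1% of starts matched GENCODE M21 exon starts, against 0.192% when moved by 1 base. The table has no strand, so the strand is the gene's.

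Each library was grouped by its tissue or treatment label. Total circRNA counts were 96349 in penumbra, 121393 in frontal core, 83090 in occipital core and 106558 in sham. Counts were scaled to these totals (CPM). Levels carry exact Poisson intervals, ratios exact conditional intervals and shares exact Clopper-Pearson intervals, at 95%. Without molecular identifiers, amplified reads do not count separate molecules, and intervals and floors cover counting error only. A count of 0 was set to 3 for a ratio.

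With 1 library per group no model of replicates can be fitted. Each circRNA with 10 or more counts over 2 libraries was compared by its ratio and by Fisher's exact test, with Benjamini-Hochberg adjustment over the whole table; the procedure was tested on simulated data. Members with 10 or more counts over the 4 libraries are described singly. Of the listed other genes, the 5 with the highest sums are named, as any called would have been. Exons are numbered along the transcript with the most exons that holds both ends. TMM factors (edgeR 4.0.16), DESeq2 1.42.0 size factors, other count minimums and members with both ends on boundaries were tried as alternatives. Python 3.11.15, scipy 1.17.1 and R 4.3.3 were used. The members and gene lists were chosen with earlier results of these data known.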

Additional observations from a re-analysis of the deposited data

Results flagged for a closer look

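For 3 of the 5 genes the counted circRNA level lay above sham in 1 region of the MCAO brain and below sham in another, but no gene had intervals that leave out 1 on both sides, so a level above sham in 1 region and below it in another is not established. The difference was not tested, because each region is 1 library and sham is shared, so that the quotient of the 2 ratios equals the ratio of the 2 regions.

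For Pip5k1b the ratio to sham was 3.10 [1.05–10.99] in penumbra and 0.176 [0.00371–1.57] in frontal core, a quotient of 17.6 that rests on a single count in frontal core. For Sacm1l the ratio to sham was 0.536 [0.276–1.00] in penumbra and 1.44 [0.915–2.29] in frontal core, which puts frontal core over penumbra by a quotient of 2.68. For Cds1 the ratio to sham was 1.20 [0.833–1.72] in penumbra and 0.524 [0.339–0.80] in frontal core, a quotient of 2.28.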

How the results depend on the processing

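Between penumbra and frontal core, the 2 members called with the adjusted p became 1 with TMM factors, where Pip5k1b stayed called and Sacm1l did not, 0 without a count minimum, which adjusts over more circRNAs, and 0 at a minimum of 30 counts, where 1 member had enough counts. The number of members with a ratio of at least 2 became 8 in frontal core against sham and 5 in frontal core against occipital core without a count minimum. At a minimum of 30 counts it was 0, 1 and 0 for penumbra, frontal core and occipital core over sham, 1 and 0 for penumbra over frontal and occipital core, and 0 between the cores, since 1 or 2 members were left. The other 49 counts stayed within 1.5 times the main value. The 115 alternative values of summed ratios and leading shares stayed within the interval of the main value; 1 crossed to the other side of 1, Sacm1l in penumbra against occipital core, at 1.00 with TMM factors and 0.920 without. TMM factors shift log2 ratios by -0.11 in occipital core against sham and by 0.12 in penumbra against occipital core. No paired analysis was possible because each group has 1 library. Depth limits most members: 27 of 40 had under 10 counts over the 4 libraries.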
